A study of Mus musculus with 36 samples.

Results

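The comparison described here is between mouse cortical neurons treated with HCA and untreated cortical neurons of the same cultures. It covers 12 of the 36 RNA-seq libraries of the series, chosen by their treatment labels: 6 control libraries and 6 libraries given 5 mM HCA for 6 h. All groups came from primary cortical cultures of CD1 mouse embryos at day 15 (E15), an outbred strain, which had been plated for 24 h on coated plastic. The other 24 libraries hold sodium selenite at 0.1 or 1, alone or with HCA. All 36 libraries share 1 fit, so the 24 also enter the low-count filter, the scaling and the estimate of spread behind every test below. Levels and changes in the 24 are shown only where the HCA response is set beside the response with selenite. The labels give the selenite doses in a unit that differs from that in the series text, so the doses carry no unit here. Cultures were prepared in 6 batches, numbered in the labels, and every HCA library has 1 control from its own batch.

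HCA is homocysteic acid per the labels, a sulfur-containing analogue of glutamate, whereas the series text calls it an inhibitor of ferroptosis. As background, homocysteic acid competes with cystine at the cystine-glutamate exchanger of the plasma membrane and is an agonist of NMDA-type glutamate receptors. Cystine is the source of cysteine for glutathione, and embryonic cortical neurons kept without cystine uptake are a known model of death by oxidative glutamate toxicity. A shortage of amino acids activates the integrated stress response, in which the kinase Gcn2 phosphorylates the initiation factor eIF2 and the transcription factor Atf4 is then translated. Atf4 binds composite C/EBP-ATF elements in the promoters of genes for amino acid transport, amino acid synthesis and tRNA charging. Calcium entry through glutamate receptors is known to switch on a separate group of genes, the immediate early genes, among them Fos and the Nr4a receptors.

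Estimated counts summed to between 35.5 and 56.9 M per library in these 12 libraries. The share of counts in rows holding ribosomal RNA was 76.2% ± 15.2 (SD, n = 6) for the controls and 45.6% ± 30.05 (SD, n = 6) for HCA. The control share ran from 45.8%, through a median of 81.2%, to 87.9%, and the HCA share from 2.70%, through 46.8%, to 79.6%. The difference of -30.6 percentage points did not pass a two-sided exact permutation test over 924 splits (p = 0.0584) or within batches (exact p = 0.125 over 64 sign flips, of which 0.03125 is the smallest possible). The share was lower with HCA in 5 of 6 batches, and batch 3 ran the other way. Counts outside those rows were 6.91 to 25.5 M in control and 8.62 to 51.6 M in HCA. After scaling by trimmed means (TMM), effective library sizes ran from 3.51 to 90.6 M in control and from 15.2 to 221 M in HCA, and were smaller in the control of 5 of 6 batches. The row that holds CT010467.1 made up most of these percentage points. The other ribosomal RNA rows, as a share of all counts, differed by -8.86 percentage points (exact permutation p = 0.104). All counts here still include the row of CT010467.1. The value therefore does not give the difference that would remain if its counts were removed.

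**Figure D1:**
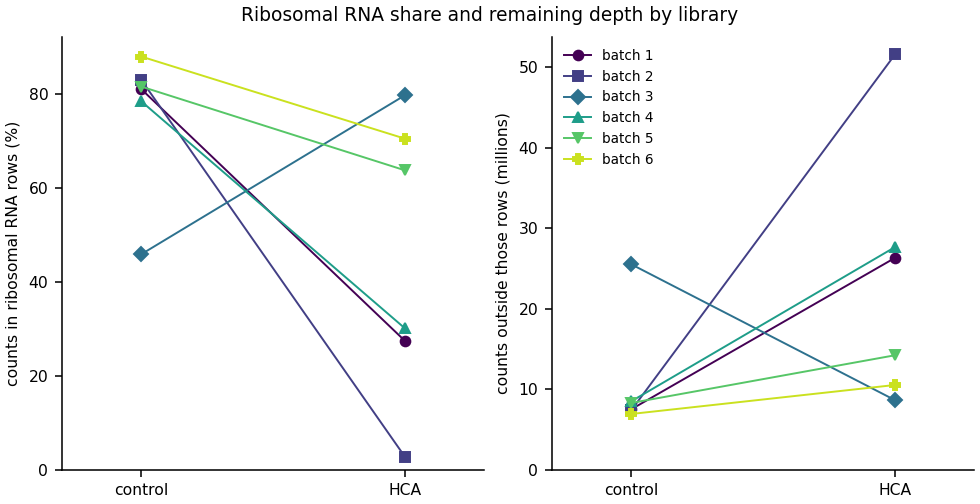
Share of counts in ribosomal RNA rows (left, percent) and counts outside those rows (right, M) in the control and HCA library of each culture batch, joined by lines. The HCA share is lower in 5 of 6 batches, while in batch 3 the control has the lower share (45.8%) and the deeper library (25.5 M).

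Gene names in the table had to be inferred. A row labelled with a gene appears to hold the transcripts that stand 1 place before that gene's own in the order of transcript identifiers. The order of the file itself bears on this. Among the 9796 rows whose labelled gene has 1 annotated transcript, 29.6% of neighbouring pairs of rows lay on the same chromosome within 5 Mb when read with this shift, and 78.9% of the first 2000 pairs did. At the 12 other shifts from -6 to 6 the values were 0.807% to 1.01%, and 1.10% to 1.95% for the first 2000 pairs. A gene is therefore named only through a row whose coding transcripts, so assigned, all come from that gene, and its row of highest mean count is used. This gave 7129 genes with a tested row of their own, among 25588 tested rows. Such a row can also hold non-coding transcripts, whose part in the counts was not tested. The row of Cars holds 6 transcripts, 1 of them coding, and that of Slc3a2 holds 10, 1 of them coding. Other coding transcripts of a gene can lie in other rows, so a level given for a gene is that of its row. Where the coding transcripts of a row come from 2 or 3 genes the row is named by all of them, and which of them carries the counts cannot be told apart. The symbol deposited with each row stands in parentheses. Levels are in CPM, counts scaled to the effective library size, differences are log2 HCA minus control ± SE (n = 6 and 6), and p-values are from edgeR's quasi-likelihood test, adjusted by Benjamini-Hochberg over all tested rows, with a threshold of 0.05. The labels name culture batches but not separate animals, so the p-values measure the spread between these cultures.

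HCA was followed mainly by higher levels: 51 rows rose (0.199% of those tested) and 7 fell (0.0274%), 58 in all (0.227%). Among the 7129 genes with a row of their own, 17 rose (0.238%) and 3 fell (0.0421%); the 3 are Mc4r, Lrig1 and Veph1, whose row is also 1 of the 40 rows holding ribosomal RNA. Of the 51 rows, 50 were higher in 6 of 6 batches, against 929 of all rows (3.63%), and in 44 every HCA library lay above every control, against 155 of all rows (0.606%). Both counts describe rows picked by a test on the same values and give no separate support for the calls. The median change of the 51 was 1.44 (log2), and the median over all tested rows was 0.08. With the culture batch as a block 74 rows passed (0.289%), 66 higher (0.258%) and 8 lower (0.0313%), and 55 of them were among the 58. The count was 22 with the 12 libraries fitted alone, 35 with limma voom and 176 with DESeq2 (104 higher and 72 lower), and between 27 and 68 when 1 batch was left out, with 27 without batch 1, 31 without batch 4, 36 without batch 6 and 38 without batch 2. Simulated counts were drawn at the effective library sizes, with 100 of 25588 rows changed 2-fold and 100 changed 4-fold between control and HCA. The test gave back 18% of the former and 56% of the latter, with 2 false calls. Apart from those changes every simulated library had the same composition. The simulation therefore cannot speak to the unequal ribosomal shares or the scaling of the real libraries.

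Fitted alone with the batch as a block, the 12 libraries left 7 rows past the threshold: the row of Cars and the rows that share Atf4, Slc7a5, Asns, Pck2, Chac1 and Sesn2 with other genes. The row with Sesn2 holds more than 3 genes and was named after its values were seen.

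**Figure D2:**
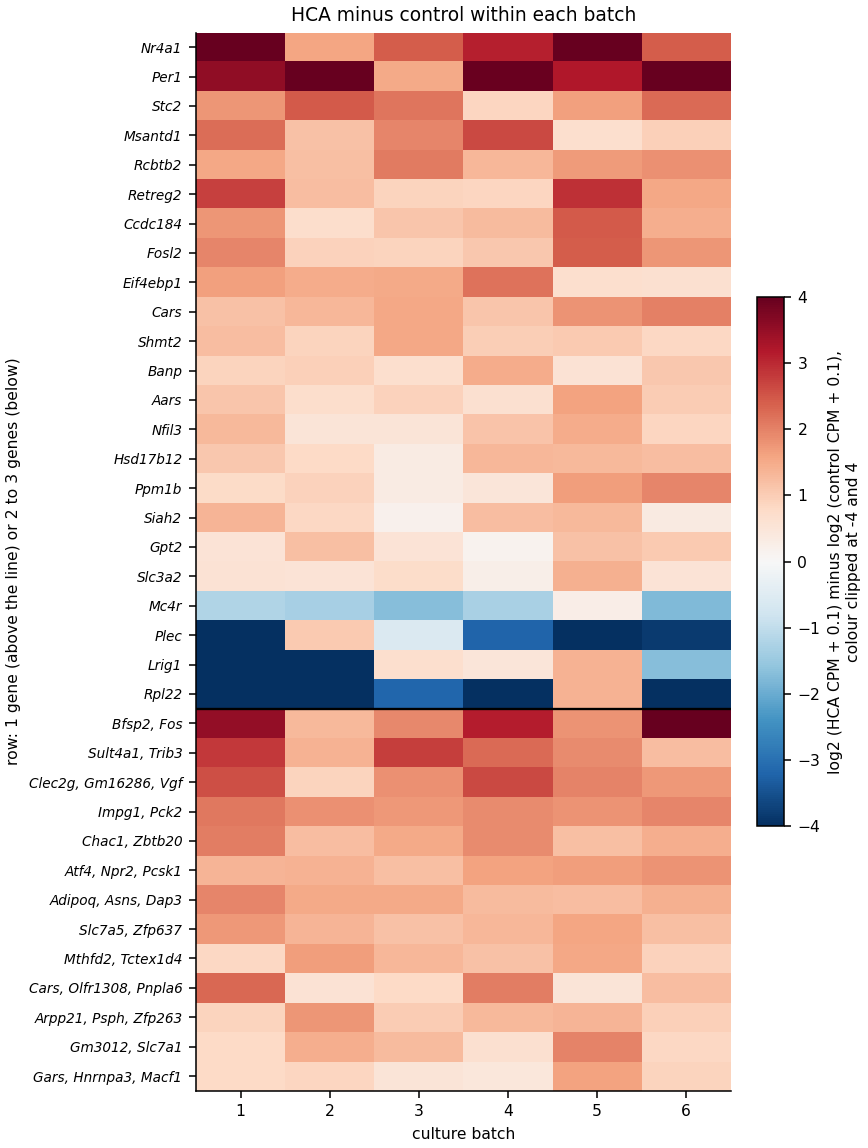
Difference between HCA and control in each of the 6 culture batches (columns) for 23 of the 24 rows of 1 gene (above the line) and the 13 rows of 2 or 3 genes with a listed gene (below) that passed the test. Colour gives log2 of HCA CPM + 0.1 minus log2 of control CPM + 0.1, clipped at -4 and 4. The rows of higher genes are red in all 6 batches, while the lower rows of Lrig1, Plec, Rpl22 and Mc4r each have at least 1 batch of the other sign.

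The gene lists below are read against all 7129 genes with a row of their own, of which 0.238% rose and whose median was 0.10. The lists were chosen with earlier results of these data known, so a higher share or median in a list gives no separate support. Of the 27 integrated stress response regulators listed, 10 had a row of their own; 2 rose, 0 fell, and 7 lay above 0, with a median of 0.33. With identifiers of 1 annotated transcript alone that median was 0.92. Stc2, a secreted glycoprotein known as an Atf4 target (chr11:31357307-31370074, minus strand; Vmn2r81), was measured at 0.409, 0.563 and 0.812 CPM in the lowest, median and highest control and at 1.56, 2.45 and 3.03 CPM with HCA. Every HCA library lay above every control, and Stc2 rose by 2.01 ± 0.28, or 4.03-fold (adjusted p = 8.67e-05). Its level is low, and the control with the smallest effective size (3.51 M) held it at 0.570 CPM, so few counts lie behind the control values. Eif4ebp1, a repressor of cap-dependent translation (chr8:27260329-27276674, plus strand; Chrna6), stood at 3.35, 4.32 and 4.85 CPM in control and at 7.59, 10.997 and 17.5 CPM with HCA. The groups did not overlap, and it rose by 1.44 ± 0.23 (adjusted p = 0.000474). Both remained past the threshold without each of the 6 batches in turn.

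Atf4 itself was measured only in rows it shares. Its row with Npr2 and Pcsk1 (Rhobtb3) held 27.9, 36.7 and 46.6 CPM in the lowest, median and highest control and 88.5, 110 and 120 CPM with HCA. This was the smallest adjusted p of the comparison (1.37e-08), with a rise of 1.49 ± 0.13 and no overlap. Npr2 encodes a natriuretic peptide receptor and Pcsk1 a prohormone convertase of neurons. The other row with Atf4 transcripts, shared with 3 more genes (Upp2), moved by 0.39 ± 0.28 (adjusted p = 0.828). Chac1, an enzyme that degrades glutathione, shares a row with the transcription factor Zbtb20 (Atrn), which rose by 1.56 ± 0.23 (adjusted p = 0.000297), from a control median of 7.81 to 23.3 CPM. Trib3, a pseudokinase that restrains Atf4, shares a row with Sult4a1 (Bcdin3d), whose 6 controls lay between 0.285 and 0.919 CPM and whose HCA libraries lay between 1.33 and 2.82 CPM. That row rose by 2.27 ± 0.49 (adjusted p = 0.0275). It did not pass without batch 1, 3, 4 or 6 (adjusted p from 0.0815 to 0.317).

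The other regulators with a row of their own did not pass. Ddit4, a stress-induced inhibitor of mTORC1 (Dnajb12), was at 11.1, 12.5 and 16.1 CPM in control and 16.8, 22.3 and 26.4 CPM with HCA, without overlap, at 0.73 ± 0.23 (adjusted p = 0.302). Atf3, a transcription factor downstream of Atf4 (Batf3), gave 0.94 ± 0.51 (adjusted p = 0.691), Ppp1r15a, the phosphatase subunit that reverses eIF2 phosphorylation (Foxq1), 0.39 ± 0.24 (adjusted p = 0.752), and Atf5 (Cpsf2) -0.09 ± 0.26 (adjusted p = 0.999). Ddit3, the factor also called CHOP, had only shared rows, of which 0 passed.

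**Figure D3:**
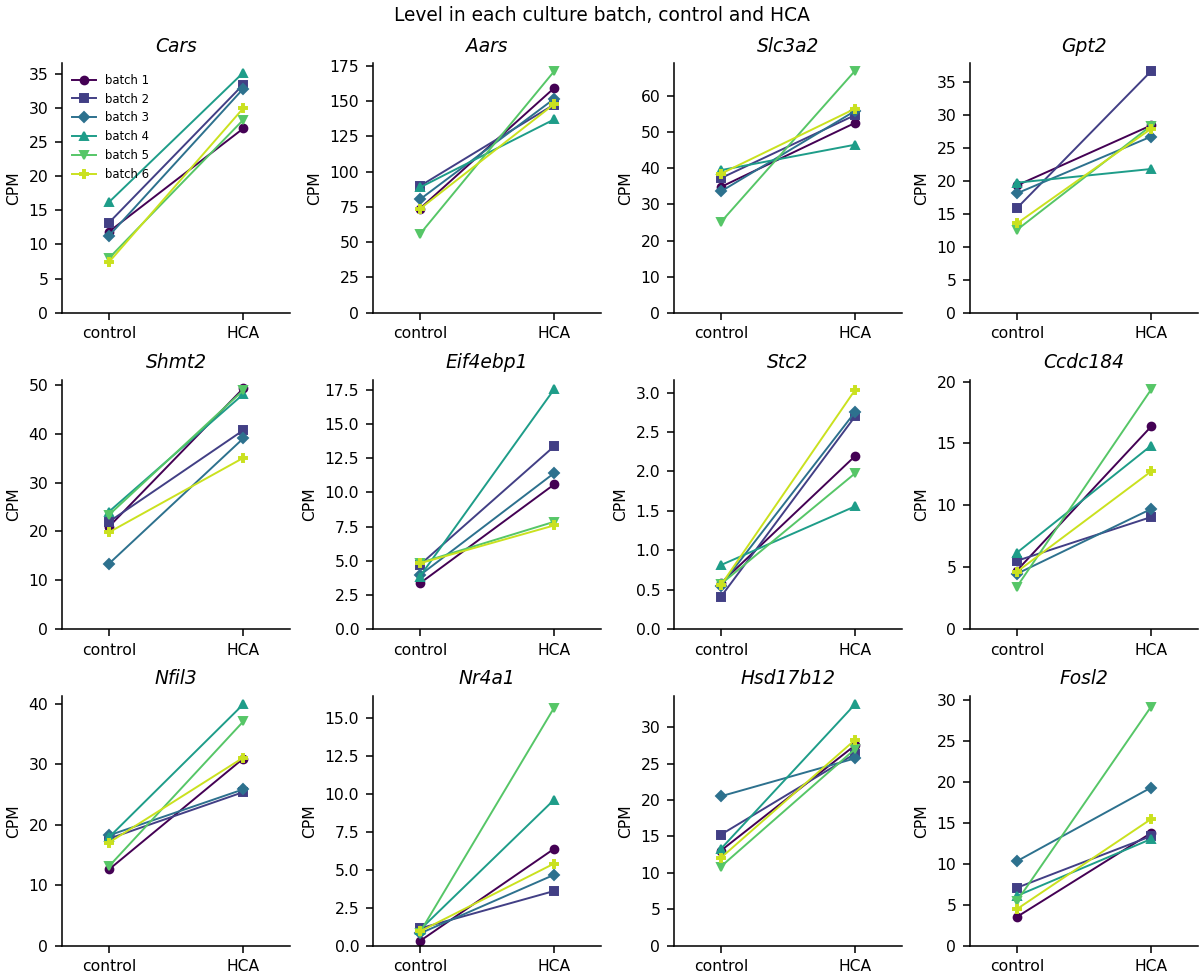
CPM in the control and HCA library of each culture batch, joined by lines, for 12 genes with a row of their own that rose; axes start at 0. Every line rises from control to HCA, and in all 12 panels the lowest HCA library lies above the highest control.

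Among the enzymes that charge tRNAs in the cytosol, those for cysteine and alanine rose. Of 23 genes listed, 10 had a row of their own; 2 rose and 9 lay above 0, with a median of 0.56. Their summed level ran from 133 to 238 CPM in control and from 318 to 353 CPM with HCA. Cars, the cysteinyl-tRNA synthetase (chr7:143557230-143600090, minus strand; Cd164l2), had the lowest adjusted p of any gene with a row of its own. Its controls lay at 7.41, 11.6 and 16.2 CPM and its HCA libraries at 27.0, 31.4 and 35.1 CPM. The groups did not overlap, and Cars rose by 1.44 ± 0.14, or 2.71-fold (adjusted p = 4.94e-08). A row it shares with Pnpla6 and a receptor gene (Phlda2) rose 2.30-fold (adjusted p = 0.0283), but did not pass without batch 1, 2, 3, 4 or 6 (adjusted p from 0.0545 to 0.342). Another row of Cars, shared with Mcm7 and Snap25 (Ubr1), gave -0.19 ± 0.24 (adjusted p = 0.96) at a control median of 17.6 CPM.

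Aars, the alanyl-tRNA synthetase (chr8:111033144-111057664, plus strand; Cdh15), was at 55.6, 77.0 and 89.7 CPM in control and at 137, 150 and 171 CPM with HCA. It rose by 0.98 ± 0.15 (adjusted p = 0.000337) without overlap. Cars and Aars kept their calls without each batch in turn. Gars, for glycine, shares a row with Hnrnpa3 and Macf1 (Cyp4f18) that rose by 0.81 ± 0.15 (adjusted p = 0.00382), from a median of 75.2 to 128 CPM. It did not pass without batch 1, 2 or 6 (adjusted p from 0.0552 to 0.0805). Iars, for isoleucine (Mnd1), had a control at 0, a control median of 13.2 CPM and HCA libraries from 22.9 to 32.9 CPM, and gave 1.27 ± 0.46 (adjusted p = 0.412). The synthetase genes Lars (0.52 ± 0.24), Hars (0.28 ± 0.15) and Mars (0.64 ± 0.41) did not pass, and Dars lay at -0.31 ± 0.27. Of the 6 mitochondrial synthetases with a row of their own 0 passed and 2 lay above 0, with a median of -0.11.

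Of 22 amino acid transporters, 10 had a row of their own; 1 rose, 9 lay above 0, and the median was 0.51. Slc3a2 encodes the heavy chain that carries both the cystine exchanger and the large neutral amino acid transporter to the membrane (chr19:8706882-8723369, minus strand; Nxf1). Its controls lay at 25.1, 36.1 and 39.5 CPM and its HCA libraries at 46.6, 55.4 and 67.1 CPM. The groups did not overlap, and Slc3a2 rose by 0.67 ± 0.12 (adjusted p = 0.00381). Without batch 1 or 3 the adjusted p was 0.0620 or 0.0521. A second row of Slc3a2 alone (Pik3c2a), with a control median of 0.604 CPM, gave 0.58 ± 0.45 (adjusted p = 0.853). Shared rows of Slc3a2 that did not pass gave between -0.44 ± 0.37 (Exosc5) and 0.61 ± 0.20 (Myh2).

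Slc7a5, the light chain of the large neutral amino acid transporter, shares a row with Zfp637 (Slc19a3). That row held 21.0, 28.9 and 29.8 CPM in control and 66.7, 70.8 and 85.4 CPM with HCA, and rose by 1.40 ± 0.14 (adjusted p = 2.3e-07). Slc7a1, a transporter of cationic amino acids, shares a row with Gm3012 (Hsd17b13) that rose by 1.15 ± 0.20 (adjusted p = 0.00146). Other shared rows of Slc7a1 did not pass, between -0.68 ± 0.64 (Slc25a16) and 1.10 ± 0.26 (Svil, adjusted p = 0.059). Slc7a3, another cationic amino acid transporter (Olfr980), was between 0.0541 and 1.43 CPM in control and between 1.22 and 4.98 CPM with HCA, at 2.42 ± 0.81 (adjusted p = 0.341). Slc7a11, the light chain of the cystine exchanger, had only shared rows, and 0 of them passed.

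Among 21 genes of serine, one-carbon, asparagine and proline synthesis, 8 had a row of their own; 2 rose, 7 lay above 0, and the median was 0.71. Gpt2, a mitochondrial alanine transaminase (Dnaja2), lay at 12.5, 17.0 and 19.7 CPM in control and at 21.8, 28.1 and 36.6 CPM with HCA, and rose by 0.77 ± 0.14 (adjusted p = 0.00387). Without batch 2 or 6 its adjusted p was 0.0545 or 0.0596. Shmt2, the mitochondrial enzyme that takes a one-carbon unit from serine (Inhbc), went from 13.4, 21.5 and 24.0 CPM to 35.03, 44.4 and 49.3 CPM without overlap. It rose by 1.08 ± 0.24 (adjusted p = 0.0303), though it did not pass without any of the 6 batches (adjusted p from 0.0681 to 0.279). Aldh18a1, the first enzyme of proline synthesis (Tctn3), had HCA libraries from 37.0 to 61.6 CPM above controls from 19.96 to 36.8 CPM but did not pass (0.85 ± 0.20, adjusted p = 0.0724).

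Another 4 members of this list sit in shared rows that rose. Asns, the asparagine synthetase, shares a row with Adipoq and Dap3 (Dlx6): 19.1, 28.2 and 32.4 CPM in control, and 64.9, 75.3 and 93.4 CPM with HCA, a rise of 1.48 ± 0.16 (adjusted p = 2.41e-07). Adipoq is known as a hormone gene of fat cells and Dap3 as a mitochondrial ribosomal protein. A row of Dap3 alone (Ermn) gave 0.12 ± 0.20 (adjusted p = 0.983). The other rows with Asns transcripts, all shared, did not pass either, at -1.15 ± 0.38 (Fbf1) to 0.50 ± 0.52 (Srpx). Pck2, the mitochondrial phosphoenolpyruvate carboxykinase, shares a row with the retinal gene Impg1 (Trem1) that rose by 1.89 ± 0.22 (adjusted p = 1.89e-06), from a median of 3.80 to 14.9 CPM. The row of Mthfd2, a mitochondrial folate enzyme, with Tctex1d4 (Kit) rose by 1.22 ± 0.14, and that of Psph, the last enzyme of serine synthesis, with Arpp21 and Zfp263 (Rhof) by 1.19 ± 0.20. These 4 rows passed without each batch in turn. Other shared rows of Pck2, Mthfd2 and Psph did not pass, between -0.43 ± 0.62 (Psph, Zfp146) and 0.32 ± 0.71 (Mthfd2, Plk4).

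The promoters of genes in this group are shown because Atf4 is known to act through a C/EBP-ATF composite element. RefSeq promoters (250 bases before to 50 after the transcription start, GRCm38.p6) were found for 16 of the 20 genes that rose through a row of 1 gene and for 10 of 12 listed genes in shared rows that rose. The letters TGATGNAA were searched on both strands. They occur in 3.97% of the 32851 promoters of that length, in 1 of 20 promoters of the first set, that of Aars, and in 5 of 11 of the second, those of Asns, Chac1, Gars, Pck2 and Trib3. The first set was not picked by list, and its share (5%) lay near that of all promoters. The second set holds only genes listed by function with earlier results of these data known, without the unlisted genes of the same rows. Its share therefore cannot be read as a result of HCA. The 6 promoters follow, 5′ to 3′ on the strand of the gene, with the matches in capitals; on the other strand the match reads as the reverse complement.
Aars, chr8:111033592-111033891, plus strand: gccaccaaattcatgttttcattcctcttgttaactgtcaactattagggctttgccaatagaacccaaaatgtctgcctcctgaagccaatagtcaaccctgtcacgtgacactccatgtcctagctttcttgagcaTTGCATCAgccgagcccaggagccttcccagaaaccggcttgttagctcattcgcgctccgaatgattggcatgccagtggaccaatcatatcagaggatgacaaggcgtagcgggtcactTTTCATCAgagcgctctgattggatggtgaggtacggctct
Asns, chr6:7693160-7693459, minus strand: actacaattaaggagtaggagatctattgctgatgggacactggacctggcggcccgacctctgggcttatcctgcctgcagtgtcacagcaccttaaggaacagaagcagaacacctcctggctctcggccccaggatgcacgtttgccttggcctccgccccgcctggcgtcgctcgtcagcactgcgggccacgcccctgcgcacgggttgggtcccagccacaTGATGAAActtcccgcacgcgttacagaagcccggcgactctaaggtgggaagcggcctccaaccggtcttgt
Chac1, chr2:119350992-119351291, plus strand: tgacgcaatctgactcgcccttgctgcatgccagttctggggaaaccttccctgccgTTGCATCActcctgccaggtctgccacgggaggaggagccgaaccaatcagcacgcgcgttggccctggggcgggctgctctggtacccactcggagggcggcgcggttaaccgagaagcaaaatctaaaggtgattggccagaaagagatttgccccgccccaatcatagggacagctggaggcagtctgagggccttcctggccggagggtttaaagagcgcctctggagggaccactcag
Trib3, chr2:152344011-152344310, minus strand: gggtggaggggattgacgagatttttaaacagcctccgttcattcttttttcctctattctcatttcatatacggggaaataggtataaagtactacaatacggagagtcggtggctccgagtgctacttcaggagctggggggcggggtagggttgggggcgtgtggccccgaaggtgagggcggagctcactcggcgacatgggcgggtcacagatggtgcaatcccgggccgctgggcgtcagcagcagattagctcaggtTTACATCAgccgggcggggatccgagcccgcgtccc
Pck2, chr14:55540016-55540315, plus strand: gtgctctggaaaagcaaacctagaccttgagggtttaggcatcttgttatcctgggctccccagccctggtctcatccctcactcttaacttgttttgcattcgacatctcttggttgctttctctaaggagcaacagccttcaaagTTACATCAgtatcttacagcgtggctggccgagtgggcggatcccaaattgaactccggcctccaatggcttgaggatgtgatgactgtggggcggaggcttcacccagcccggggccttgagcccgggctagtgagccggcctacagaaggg
Gars, chr6:55037751-55038050, plus strand: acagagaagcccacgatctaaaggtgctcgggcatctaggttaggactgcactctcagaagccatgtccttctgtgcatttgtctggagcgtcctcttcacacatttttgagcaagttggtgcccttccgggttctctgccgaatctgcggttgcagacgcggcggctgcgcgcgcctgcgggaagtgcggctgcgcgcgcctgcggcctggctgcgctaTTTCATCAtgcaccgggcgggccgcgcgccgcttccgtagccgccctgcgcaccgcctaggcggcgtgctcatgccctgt
In the Aars promoter the letters occur at 2 places, which start at -112 and 10 relative to the transcription start. The match starts at -193 in Chac1, -103 in Pck2, -30 in Gars, -23 in Asns and 15 in Trib3. A match is a description of the sequence and does not show binding, and the shared rows do not show which gene's transcripts rose.

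The letters TGACG, which open the cAMP response element and were searched on both strands, occur in 9 of the 20 promoters of the first set and in 7 of the 11 of the second, and in 20.8% of all promoters. The matches in the first set are not limited to activity genes: beside Nr4a1, Nfil3 and Per1 they are in promoters of Ccdc184, Hsd17b12, Ppm1b and Retreg2. The full palindrome TGACGTCA is in 0 of both sets and in 1.79% of all promoters.

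Several genes that report neuronal activity rose. Of 40 immediate early and activity genes, 19 had a row of their own; 5 rose, 0 fell and 16 lay above 0, with a median of 1.37. Nr4a1, an orphan nuclear receptor (chr15:101254269-101274795, plus strand; Krt88), had controls at 0.291, 0.891 and 1.12 CPM and HCA libraries at 3.59, 5.88 and 15.7 CPM. The groups did not overlap, and it rose by 3.19 ± 0.49, or 9.14-fold (adjusted p = 0.000418), with the highest value in batch 5. Nr4a1 is low in these libraries, and in the control with the smallest effective size (3.51 M) it was at 0.855 CPM.

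Nfil3, a basic leucine zipper repressor (C330011M18Rik), was better covered, at 12.6, 17.4 and 18.2 CPM in control and 25.4, 31.0 and 39.9 CPM with HCA. It rose by 0.97 ± 0.16 (adjusted p = 0.00146) and kept its call without each batch. Fosl2, a Fos family subunit of AP-1 (Rbks), went from 3.49, 5.74 and 10.3 CPM to 13.0, 14.6 and 29.2 CPM, a rise of 1.47 ± 0.33 (adjusted p = 0.0341). It did not pass without batch 1, 2, 4, 5 or 6 (adjusted p from 0.101 to 0.211). Per1, a clock gene induced by calcium signals (Vamp2), was at 0 to 1.82 CPM in control, with 2 libraries at 0, and at 2.26 to 8.64 CPM with HCA. It rose by 2.97 ± 0.61 (adjusted p = 0.019), but not past the threshold without batch 1, 4, 5 or 6 (adjusted p from 0.0579 to 0.216). A second row of Per1 alone gave 2.40 ± 0.80 (adjusted p = 0.341). Rows that Per1 shares with other genes did not rise alike, at 0.21 ± 0.22 (Slc25a35), -0.04 ± 0.18 (Mta2) and -0.27 ± 0.21 (Cylc2). Their control medians were higher, at 10.7, 17.1 and 22.7 CPM, and which gene carries those counts cannot be told apart. In the row that passed, the control median (0.299 CPM) also lay below those with selenite alone, 2.03 CPM at dose 0.1 and 1.66 CPM at dose 1. The HCA median was 4.53 CPM.

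Fos shares a row with the lens gene Bfsp2 (Erg28). The row lay between 0.370 and 5.70 CPM in control and between 5.39 and 20.2 CPM with HCA; the groups overlapped through the control of batch 5. It rose by 2.54 ± 0.52 (adjusted p = 0.0161), but did not pass without batch 1, 3, 4 or 6 (adjusted p from 0.0689 to 0.211). Vgf, a neuropeptide precursor, shares a row with Clec2g and Gm16286 (Fbln2) that rose by 1.98 ± 0.40 (adjusted p = 0.0159), and its call was lost without batch 1, 3, 4 or 6 (adjusted p from 0.0697 to 0.127). The row of Vgf alone (Gm29301), with a control median of 0.0497 CPM, gave 2.27 ± 1.07 (adjusted p = 0.619).

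Other activity genes did not pass. Scg2, a secretogranin (Gm29320), had HCA libraries from 15.7 to 29.2 CPM above controls from 0 to 7.46 CPM, at 2.16 ± 0.56 (adjusted p = 0.121). Fosb (Klc4) was at 0 in every control and at 0 to 3.49 CPM with HCA, with a mean at least 41.6-fold higher than a floor of 3 counts over the control group (adjusted p = 0.146). At that bound the median of the list stayed at 1.37. Nptx2, a synaptic pentraxin (1110038F14Rik), gave 1.37 ± 0.42 (adjusted p = 0.275). Arc, a regulator of synaptic strength (Rpl24), gave -0.20 ± 0.62, Egr2 (Ptp4a1) 0.22 ± 0.26, Egr3 (Rc3h1) 0.30 ± 0.44, Btg2 (Tns3) 0.15 ± 0.19 and Ier5 (Olfr94) -0.04 ± 0.16, all with adjusted p above 0.9. The median of this list was 0.50 when the 12 libraries were fitted alone and was 2.00 with identifiers of 1 annotated transcript alone.

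**Figure D4:**
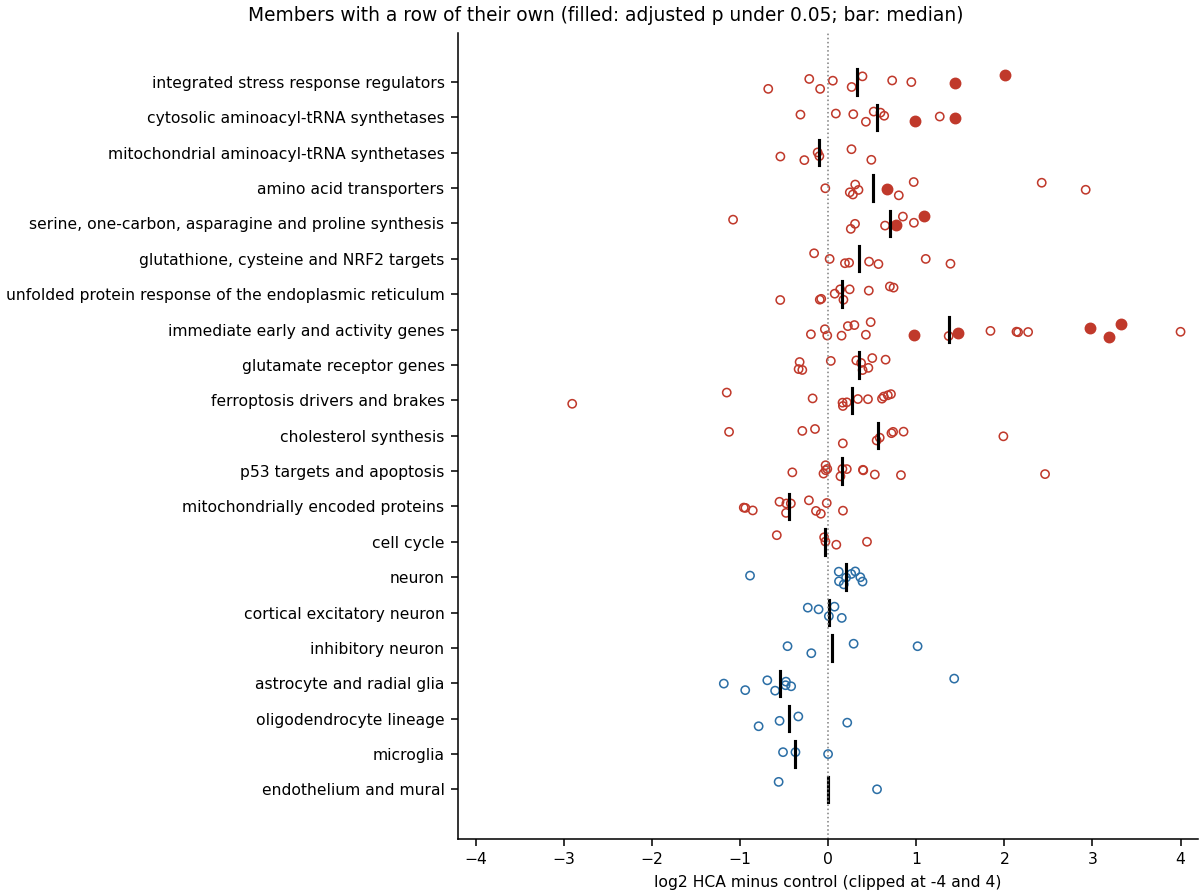
Log2 HCA minus control (x axis, clipped at -4 and 4) of every listed gene with a row of its own, by list; red, pathway lists, blue, cell type marker lists. Filled circles passed at an adjusted p under 0.05, open circles did not, and black bars are medians. Filled circles occur in 5 of the 14 pathway lists and in 0 of the 7 marker lists.

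Several genes outside the lists rose through a row of their own. Ccdc184, a coiled-coil gene of little known function (2210010C04Rik), went from 3.42, 4.68 and 6.17 CPM to 9.05, 13.8 and 19.4 CPM, a rise of 1.49 ± 0.22 (adjusted p = 0.000297) that kept its call without each batch. Hsd17b12, an enzyme of fatty acid elongation (Alkbh3os1), rose by 0.97 ± 0.17 (adjusted p = 0.00151), with HCA libraries from 25.7 to 33.2 CPM above controls from 10.8 to 20.5 CPM; without batch 1 or 4 its adjusted p was 0.0503 or 0.0552. Siah2, a ubiquitin ligase (Penk), rose by 0.80 ± 0.17 (adjusted p = 0.0303), its HCA libraries between 6.93 and 8.02 CPM and its controls between 2.98 and 6.61 CPM. Banp, a nuclear matrix binding protein (Taf1c), rose by 1.01 ± 0.21 (adjusted p = 0.0227), and Ppm1b, a protein phosphatase (Rpl21-ps3), by 0.95 ± 0.22 (adjusted p = 0.0487). Lower-count rows of Banp alone did not pass, at 0.74 ± 0.46 (Gm8801, adjusted p = 0.77) and -1.13 ± 0.83 (Gm3072, adjusted p = 0.837). Siah2 did not pass without batch 1, 2, 4 or 5 (adjusted p from 0.134 to 0.358), Banp without 1, 2, 3, 4 or 6 (0.0545 to 0.290), and Ppm1b without any batch (0.0532 to 0.310) or in the fit with a batch term (adjusted p = 0.0559).

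For 3 further genes the row that rose is not the gene's main row. Retreg2, a reticulophagy receptor family gene, rose by 1.57 ± 0.30 in 1 row (Gm28404; adjusted p = 0.00859), while its row of highest count (Catip) gave -0.04 ± 0.29 at medians of 27.1 and 26.03 CPM. Rcbtb2 (Gm17137) rose by 1.78 ± 0.35 (adjusted p = 0.00859), while its other rows of 1 gene gave between -0.87 and 0.34. Rows that Rcbtb2 shares with other genes gave between -0.58 (Maob) and 0.61 (Atp4a), and did not pass. Msantd1 (Gpr1) rose by 1.92 ± 0.40 (adjusted p = 0.0211) at a control median of 0.302 CPM, while its main row (Olfr58) gave 0.01 ± 0.54. A further row of Msantd1 alone (Gm43637), with a control median of 0.148 CPM, gave 2.20 ± 0.61 (adjusted p = 0.172). All 3 calls were lost when single batches were left out: Retreg2 without 1, 5 or 6 (adjusted p from 0.0687 to 0.0782), Rcbtb2 without 1, 2 or 3 (0.0514 to 0.0857) and Msantd1 without 1, 2, 3, 4 or 6 (0.0579 to 0.290).

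Of the 7 rows that fell, 2 were lower in 6 of 6 batches and 0 kept their call without each batch. Mc4r, the melanocortin 4 receptor (Ugt8a), was at 0.570, 1.90 and 2.57 CPM in control and at 0.597, 0.672 and 0.823 CPM with HCA, and fell by 1.45 ± 0.29 on the log2 scale (adjusted p = 0.0123). It was lower in 5 of 6 batches, and the groups overlapped because the control of batch 5 lay below every HCA library. It did not pass without batch 1, 2, 3, 4 or 6 (adjusted p from 0.0643 to 0.127). A row of Plec, a cytoskeletal linker (Myocos), had controls from 0.204 to 8.27 CPM and HCA libraries from 0.220 to 0.533 CPM (adjusted p = 0.0415), and Lrig1, a negative regulator of growth factor receptors (1700003E16Rik), had controls from 0 to 7.56 CPM and HCA libraries from 0.101 to 0.393 CPM (adjusted p = 0.0415). The groups overlapped in both. Lrig1 was lower in 3 of 6 batches and did not pass in the blocked fit (adjusted p = 0.152) or without batch 1, 2, 4, 5 or 6 (0.0815 to 0.422), nor the row of Plec without any batch (0.0506 to 0.326). That row is not the main row of Plec, which (Ear2) gave 1.10 ± 0.99 (adjusted p = 0.9), and a further row (Olfr138) gave -0.25 ± 0.71 at medians of 4.01 and 3.88 CPM.

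The row of Veph1 (Ptx3), named after its values were seen, had the largest fall of the 58 rows: controls at 0, 45.4 and 1064 CPM, HCA libraries at 0.242, 0.372 and 0.610 CPM, and a change of -8.96 ± 1.597 (adjusted p = 0.00288). The groups overlapped, and without batch 5, whose control is the highest, the adjusted p was 0.0523. It also holds a ribosomal RNA transcript, so which transcript carries the counts cannot be told apart; the ribosomal share of the libraries is given above, and its part in this result was not tested.

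The lower row of Rpl22, a ribosomal protein gene (Gm28638), held 0 to 25.9 CPM in control and 0 to 0.955 CPM with HCA, while the main row of Rpl22 (Itpa) gave 0.29 ± 0.23 at medians of 26.1 and 27.5 CPM. The call on the lower row was lost without batch 1, 2 or 6 (adjusted p from 0.126 to 0.162). The blocked fit called 3 more rows of 1 gene: Gmeb2, a glucocorticoid modulatory binding protein (Sox30; 0.76 ± 0.19 without the block, and adjusted p = 0.0319 with it), 4931406B18Rik (Igf2bp1; 1.59 ± 0.40, 0.0214) and Kif2c, a mitotic kinesin (Hhipl2; -0.58 ± 0.18, 0.0267), which was lower in 6 of 6 batches.

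Genes of the pathway that cystine feeds were not called. Of 28 genes of glutathione and cysteine metabolism and of the oxidant-response factor Nrf2, 8 had a row of their own; 0 passed and 7 lay above 0, with a median of 0.35. Gss, the glutathione synthetase (Gpr182), was at 0, 1.66 and 3.32 CPM in control and at 3.02, 3.64 and 4.58 CPM with HCA, at 1.11 ± 0.41 (adjusted p = 0.428). Gclm, a subunit of the rate-limiting enzyme of glutathione synthesis (Btbd35f12), gave 0.57 ± 0.35 (adjusted p = 0.924) at a control median of 1.21 CPM. Hmox1, Nqo1, Srxn1 and Txnrd1, common Nrf2 targets, had only shared rows, and 0 of those passed.

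The lists for ferroptosis and for the endoplasmic reticulum had no member past the threshold either. Of 24 drivers and brakes of ferroptosis 12 had a row of their own, 9 of them above 0, with a median of 0.27. The row used for Gpx4, the selenoprotein that reduces lipid peroxides (Dio3), was at 0 to 3.71 CPM in control and 0.459 to 3.90 CPM with HCA (0.68 ± 0.65, adjusted p = 0.917). Acsl4, which loads polyunsaturated fatty acids into lipids (Thap4), gave -1.15 ± 0.51 (adjusted p = 0.583), and Slc11a2, an iron transporter (Efhd1os), 0.71 ± 0.22 (adjusted p = 0.29). Among 24 genes of the unfolded protein response 10 had a row of their own, with a median of 0.15; Hyou1 (Kirrel3os) gave 0.07 ± 0.23 and Pdia6 (Prr12) 0.24 ± 0.20.

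Glutamate receptor genes were not called: 10 of 23 had a row of their own, 7 above 0, with a median of 0.35. Grin1, the obligatory NMDA receptor subunit (Arl6ip6), gave 0.03 ± 0.43 and Grin2b (Morc2b) -0.34 ± 0.46. The 10 cholesterol synthesis genes measured had a median of 0.57; Fdps, the farnesyl diphosphate synthase (Rnu3a), was highest among them at 1.99 ± 0.52 (adjusted p = 0.121). The 13 measured genes of p53 signalling and apoptosis had a median of 0.16, and the 5 of the cell cycle -0.03. Of 12 mitochondrially encoded proteins 1 lay above 0, with a median of -0.45, and mt-Nd6 was lowest at -0.96 ± 0.31 (adjusted p = 0.318).

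Marker genes were checked against the labelled cell type. Tubb3, a neuronal tubulin (Tubb4a), was at 665 to 872 CPM in control and 746 to 1181 CPM with HCA, and Neurod2, a factor of cortical excitatory neurons (Nudt22), at 28.8 to 60.3 and 37.5 to 58.9 CPM. Of the 9 neuron markers with a row of their own, 8 lay above 0, with a median of 0.20 and a summed level of 722 to 982 CPM in control and 872 to 1278 CPM with HCA. The 5 markers of excitatory neurons had a median of 0.01. Gad1, which makes the transmitter GABA (Ccdc173), was at 7.22, 8.72 and 13.0 CPM in control and at 13.1, 20.9 and 23.5 CPM with HCA, without overlap, at 1.01 ± 0.27 (adjusted p = 0.128); the 4 markers of inhibitory neurons had a median of 0.05. In bulk cultures fewer cells of a type and less RNA per cell cannot be told apart.

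Markers of glia were detected as well. Of 8 astrocyte and radial glia markers with a row of their own 1 lay above 0, with a median of -0.54, and their summed level was 67.6 to 155 CPM in control and 50.1 to 95.1 CPM with HCA. Slc1a3, a glutamate transporter of astrocytes (Msh6), gave -0.60 ± 0.31 (adjusted p = 0.657), and Slc1a2 (Ifi204) -0.48 ± 0.23. The 4 markers of the oligodendrocyte lineage summed to 7.98 to 14.97 CPM in control and 7.38 to 16.7 CPM with HCA, with 1 of 4 above 0 and a median of -0.45. The 3 of microglia summed to 4.63 to 15.4 and 4.05 to 12.05 CPM (0 above 0, median -0.37), and the 2 of endothelium and mural cells to 5.68 to 67.8 and 9.39 to 130 CPM (1 above 0, median -0.00). No marker with a row of its own passed or had a median of 0 CPM in either group, and the part of these cells in the results above was not tested.

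HCA in the presence of selenite was measured in 24 other libraries of the same batches, as HCA with selenite against selenite alone, averaged over both doses; there 156 rows passed (0.610%). Of the 51 rows that rose with HCA alone 49 had the same sign with selenite and 40 passed. Cars rose by 1.22, Stc2 by 1.77, Eif4ebp1 by 1.58 and Nr4a1 by 3.14 there, and the shared row of Atf4 by 1.40. At dose 0.1 alone 33 of the 51 passed, and at dose 1 alone 29. Of the 7 rows that fell, 7 had the same sign and 3 passed, among them Mc4r (-1.21, adjusted p = 0.000396). The sign alone does not show that a fall was repeated: Lrig1 went from -3.55 with HCA alone to -0.07 with selenite. The row of Acin1 with other genes (Snph) went from -0.85 to -0.17 (adjusted p = 0.984). The lower rows of Plec (-1.41, adjusted p = 0.427) and Rpl22 (-2.44, adjusted p = 0.195) did not pass with selenite either.

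The HCA effect without selenite was tested against that with selenite in the same fit. By edgeR 0 of 25588 rows passed and 703 had an unadjusted p under 0.05; DESeq2 called 9 rows and limma voom 0. The smallest adjusted p, 0.157, belonged to the row of Defb11 and Emc6 (Psg22), which was named for this result. Per1 rose by 2.97 alone and gave 1.14 with selenite (adjusted p = 0.33), a difference that did not pass.

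**Figure D5:**
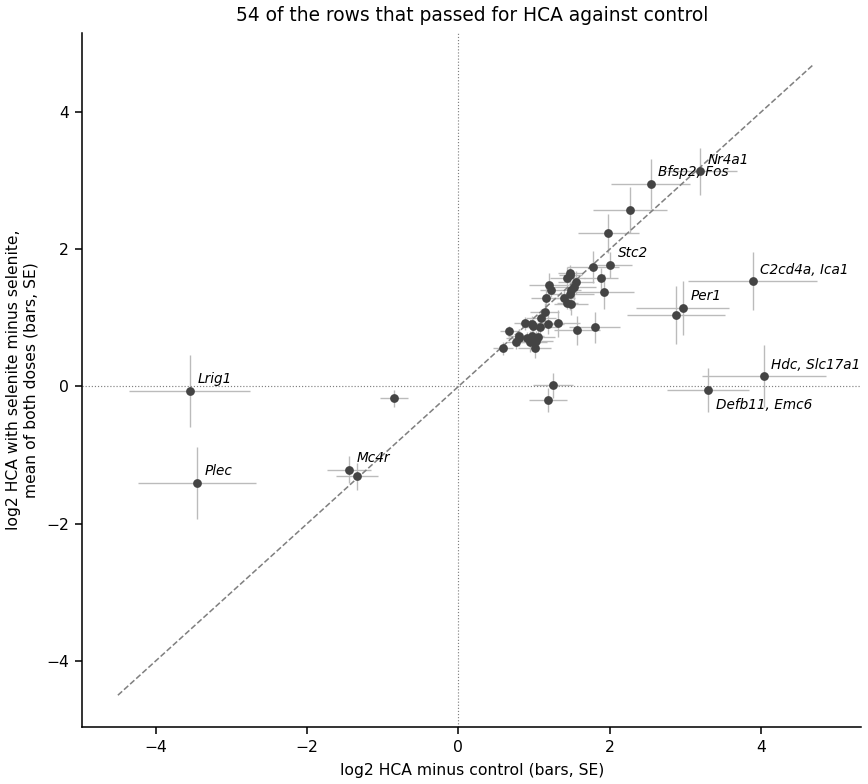
Log2 difference of HCA against control (x axis) and of HCA with selenite against selenite alone, averaged over both doses (y axis), for 54 of the 58 rows that passed without selenite; bars are SE, the dashed line marks equal change, and 3 rows outside the axes and 1 that is not reported are left out. Of the 51 rows that rose 49 had the same sign in both comparisons. The row of Defb11 with Emc6 (-0.05 on the y axis) and that of Mta1 with other genes (-0.20) had the other sign. The row of Hdc with Slc17a1 kept its sign but lies at 0.15.

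Among the rows of more than 3 genes that rose, 4 hold a listed gene and were named after their values were seen. The row with Sesn2, a leucine-sensing stress gene (Rcc1), went from 5.53, 6.30 and 9.41 CPM to 16.8, 19.5 and 22.5 CPM and rose by 1.48 ± 0.16 (adjusted p = 7.66e-07). The row with Yars, the tyrosyl-tRNA synthetase (Zranb2), rose by 0.90 ± 0.12 (adjusted p = 4.87e-05) and that with Herpud1, a gene of endoplasmic reticulum protein degradation (Gstcd), by 0.88 ± 0.14 (adjusted p = 0.00058). All 3 passed without each batch. A further row with Slc3a2 and 7 other genes (Ntrk3) rose by 1.80 ± 0.34 (adjusted p = 0.00483), with an adjusted p of 0.0766 without batch 1 and 0.0587 without batch 4.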

How the data were processed

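Ribo-Zero Gold RNA-seq libraries of cultured mouse cortical neurons were analysed, 6 HCA and 6 control, with 24 selenite libraries in the same fit. The deposited table holds estimated counts per gene label, made by the authors with tools that the submitters' processing notes list as STAR and Salmon on GRCm38; versions and settings are not given in the sources used here. Counts were rounded to whole numbers. Rows were matched to GENCODE vM21 with the shift described above, and 99.3% of 27288 identifiers matched. The 40 ribosomal RNA rows stayed in the fit.

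The test was edgeR 4.0.16 quasi-likelihood (R 4.3.3) with TMM scaling, its default filter on low counts (25588 rows tested), 1 mean per group over 36 libraries and no block; SE is the log2 difference divided by the square root of F. Differences per batch used log2 of CPM + 0.1. Alternatives were the batch block, the 12 libraries alone, RLE scaling, DESeq2 1.42.0, limma 3.58.1 voom, no filter, no ribosomal rows, depth as covariate and leaving out batches or libraries. Named genes are listed genes and genes that passed with a row of 1 gene, and listed genes in passing rows of 2 or 3 genes; other names were chosen after their values were seen. A further gene that rose is counted but not reported here. The members and gene lists were chosen with earlier results of these data known. The labels' batch numbers pair the samples; correlations of deviations within batches ran from -0.076 to 0.203 (median 0.056, over 5766 rows). No libraries were identical. The procedure was tested on simulated data, in which all libraries had the same composition apart from the set changes. Intervals and floors cover counting error only.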

Additional observations from a re-analysis of the deposited data

Results flagged for a closer look

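In 12 of 82 sets of 6 libraries checked, the highest or lowest library lay apart from the other 5 by more than the limit of Dixon's test; chance alone gives about 1 in 20. Batch 5 holds 6 of these values. Its control was high for Msantd1 (1.14 CPM, group median 0.302) and the row of Bfsp2 and Fos (5.70, 1.44), and low for the row of Gars, Hnrnpa3 and Macf1 (41.1, 75.2). Its HCA library was high for Retreg2 (20.1, 11.4), 4931406B18Rik (3.17, 1.499) and the row of Clec2g, Gm16286 and Vgf (35.6, 13.8). The control of batch 1 was low for the row of Slc7a5 and Zfp637 (21.0, 28.9). The HCA library of batch 2 was high for the row of Mthfd2 and Tctex1d4 (28.4, 21.4), and that of batch 4 for Hsd17b12 (33.2, 27.2) and the low row of Rpl22 (0.955, 0.115). The control of batch 3 had the lowest ribosomal share (45.8%, median 81.2%) and the most counts outside ribosomal rows (25.5 M, median 7.88 M).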

How the results depend on the processing

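Of the 58 rows that passed, the replicate block (74 rows) and the other scalings and filters kept the count within 1.5 times, apart from the following. The count was 22 with the 12 libraries alone, 7 when these also had the replicate block, 176 with DESeq2, 35 with limma voom, and 27 to 68 with 1 batch left out; the cause was not tested. Of these calls 87.9% were higher, against 59.1% with DESeq2 and 80% with RLE scaling (44 higher, 11 lower). The test of HCA without against with selenite gave 0 rows, 9 with DESeq2 and 0 to 1 with 1 batch left out. Across all alternatives 0 of the named values reversed, 177 no longer passed, 6 newly passed and 470 stayed on their side. Of the list medians 351 stayed within the spread between batches and 5 moved. The median change of all rows moved by -0.09 with RLE and by less with the rest. Gene names rest on the inferred shift of rows, and with effective sizes down to 3.51 M, a level of 0.285 CPM in that control is 1 count.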

Other observations

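Some listed genes that did not pass with HCA alone passed for HCA with selenite against selenite alone; the difference between both effects did not pass for any row with edgeR. Slc7a3 rose by 3.28 with selenite (adjusted p = 0.00131), Aldh18a1 by 0.91 (0.000207), Scg2 by 2.25 (0.00119), Ddit4 by 0.65 (0.0449) and Bdnf, a neurotrophin at 0 to 0.306 CPM in the control libraries, by 5.16 (0.000316). Fdps rose by 1.76 (0.00738) and Gad1 by 0.77 (0.0421), and Cars2, the mitochondrial cysteinyl-tRNA synthetase, fell by 1.04 on the log2 scale (0.00145).

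In several rows, chosen after their values were seen, the untreated controls also lay below both groups with selenite alone. All 6 controls were at 0 for the row that Gfm2 shares with Tulp1 and Vmn2r9 (Vmn2r107), with medians of 1.85 CPM with HCA, 0.915 and 0.749 CPM with selenite at 0.1 and 1, and 1.19 and 1.22 CPM with both agents; its HCA mean was at least 85.8-fold higher than a floor of 3 counts over the control group. The row of Defb11 and Emc6 (Psg22) had medians of 0.0271 CPM in control, 1.58 CPM with HCA, 1.02 and 1.09 CPM with selenite and 1.01 and 1.02 CPM with both. The row with Mta1 and 6 other genes (Mta1) had medians of 9.56, 21.8, 18.7, 20.2, 16.2 and 17.8 CPM in the same order. Per1 (Vamp2) had medians of 0.299, 4.53, 2.03, 1.66, 4.24 and 3.48 CPM. Those of the row that Slc3a2 shares with 7 other genes (Ntrk3) were 2.30, 10.3, 5.52, 6.50, 10.2 and 10.9 CPM.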
